A study of Homo sapiens with 6 samples.

Results

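The genes described here are 6 insulin-like growth factor (IGF) binding proteins, IGFBP2 to IGFBP7, the receptors IGF1R, IGF2R and INSR, and the receptor adaptor IRS1. These 10 genes were taken by symbol from a table of 27914 genes, and all 10 were found. They were measured by RNA sequencing in MCF10A, a line of human breast epithelium that is immortal but not tumorigenic. The cells compared were labelled α-/-;βin (3 libraries) and SCRin control, with a wild-type genotype (3 libraries). Cells of both groups had been given doxycycline for 3 days. The labels do not spell out α, β, SCR or in. The series title names the PI5P4K lipid kinases, so α and β were read as the enzymes encoded by PIP4K2A and PIP4K2B. The labels do not say whether a line was 1 clone, or whether replicates came from separate cultures. The p-values then reflect the spread among these 6 libraries only, and that spread may be technical.

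IGF1, IGF2 and insulin act through the receptor tyrosine kinases IGF1R and INSR, which dock IRS adaptors and through them start PI3K and AKT signalling. Secreted IGF-binding proteins hold IGFs outside the cell and either withhold them from the receptor or deliver them to it, and proteases release them. IGF2R is not a signalling receptor of this kind. It clears IGF2 and sorts enzymes tagged with mannose 6-phosphate to lysosomes. MCF10A cells are usually grown in medium with added insulin, and no medium is stated for these cells.

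Expression was given as TPM, an abundance of transcripts scaled per gene length and to the same total in each library, so that levels can be set side by side between genes. Between 11859 and 12116 genes reached 1 TPM in a library, and depth is unknown because TPM keeps none. The groups were compared with limma on log2(TPM + 1), a scale that understates the change of low genes, over the 12096 genes whose mean reached 1 TPM. Of these, 2.19% were called, meaning that they had a Benjamini-Hochberg adjusted p below 0.05. PIP4K2A measured 4.09, 4.16 and 4.35 TPM in α-/-;βin libraries and 19.8, 20.2 and 21.7 TPM in controls. PIP4K2B measured 8.20, 8.69 and 11.6 TPM in α-/-;βin libraries and 20.8, 23.1 and 21.4 TPM in controls. Both were called lower, PIP4K2A with a log2 difference of -2.05 (SE 0.10, limma adjusted p = 0.000847) and PIP4K2B with -1.13 (SE 0.14, adjusted p = 0.00985). That of PIP4K2B did not pass when control replicate 3 was left out (limma adjusted p = 0.0602) or when both libraries numbered 2 were (0.116, an alternative added after the data were seen). PIP4K2C, the third gene of this family, measured 39.9, 28.6 and 33.4 TPM in α-/-;βin libraries and 45.9, 37.4 and 45.9 TPM in controls and was not called (log2 difference -0.34, adjusted p = 0.438). All 7 basal breast epithelial markers averaged at least 1 TPM, and their summed level ran from 3119 to 5238 TPM in α-/-;βin libraries and from 2810 to 5596 TPM in controls. Of 7 fibroblast markers, COL1A1 and DCN averaged at least 1 TPM, and COL3A1 was listed at 0 throughout. The fibroblast list summed to 2.73 to 6.13 TPM in α-/-;βin libraries and 1.96 to 6.32 TPM in controls. Luminal markers were present in part, with 4 of 8 averaging at least 1 TPM, and summed to 567 to 680 TPM in α-/-;βin libraries and 632 to 728 TPM in controls. Of 5 leukocyte markers, CD14 averaged at least 1 TPM, while PTPRC was listed at 0 in all libraries. The leukocyte list summed to 7.10 to 9.48 TPM in α-/-;βin libraries and 2.64 to 6.38 TPM in controls, and its part in the results was not tested. None of 5 endothelial and none of 4 adipocyte markers averaged 1 TPM.

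IGFBP6 and IGFBP3, both abundant binding proteins, differed in how steady they were between replicates, and the 250 bases before their transcription starts are shown for that contrast. The sequences are those of RefSeq on GRCh38.p14, 5′ to 3′ along the gene. The IGFBP3 window is chr7:45921273-45921522 on the minus strand and the IGFBP6 window chr12:53097417-53097666 on the plus strand. Of the 10 genes, 9 had an entry in the RefSeq promoter table. Capitals mark matches on either strand to 3 motifs: TATAAA, the core of the TATA box, GGGCGG, the GC box, and GGAATG, the core recognised by TEAD factors, the DNA-binding partners of YAP and TAZ. No marked match overlaps another.
IGFBP3: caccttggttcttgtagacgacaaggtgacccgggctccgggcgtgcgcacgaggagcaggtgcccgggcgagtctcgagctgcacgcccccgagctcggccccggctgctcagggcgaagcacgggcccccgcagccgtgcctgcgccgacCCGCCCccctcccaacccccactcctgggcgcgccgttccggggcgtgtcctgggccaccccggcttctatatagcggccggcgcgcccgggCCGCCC
IGFBP6: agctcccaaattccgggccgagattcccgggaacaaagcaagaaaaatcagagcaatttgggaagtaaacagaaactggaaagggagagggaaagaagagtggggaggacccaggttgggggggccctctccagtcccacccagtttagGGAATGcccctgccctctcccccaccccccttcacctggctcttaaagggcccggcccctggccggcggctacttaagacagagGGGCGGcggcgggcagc
The IGFBP3 window held 2 GC boxes, both on the opposite strand, and the IGFBP6 window 1 GC box and 1 TEAD core. Neither held TATAAA. Of 35116 RefSeq windows of this length, 10.7% held TATAAA, 42.6% a GC box and 11.9% a TEAD core. G and C made up 76.0% of the IGFBP3 window and 61.2% of the IGFBP6 window. These matches describe the letters only.

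None of the IGF-binding protein, receptor or adaptor genes was called. In bulk RNA a lower level in each cell and a smaller share of cells with the transcript cannot be told apart. Of the 10 genes, 8 passed the filter on low values, and IGFBP2 and IGFBP5 did not. Of those 8, 0 were lower and 0 higher by limma, against 2.19% of all genes tested, and 0 had an unadjusted p below 0.05, against 11.9%. The smallest adjusted p was 0.627, for INSR. The median log2 difference of the 8 was -0.03, and that of all genes tested was -0.01. Groups did not overlap for 2 of the 8, INSR and IRS1, a share of 25% against 17.1% of all genes tested. For the 4 genes IGFBP6, IGFBP7, IGF2R and IGF1R the 95% intervals of the log2 difference lay between -0.53 and 0.67. Those of the other tested genes reached beyond these bounds. They ran from -2.08 to 1.59 for IGFBP3, -0.33 to 1.05 for IGFBP4, -0.15 to 0.77 for INSR and -0.72 to 0.16 for IRS1.

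**Figure D1:**
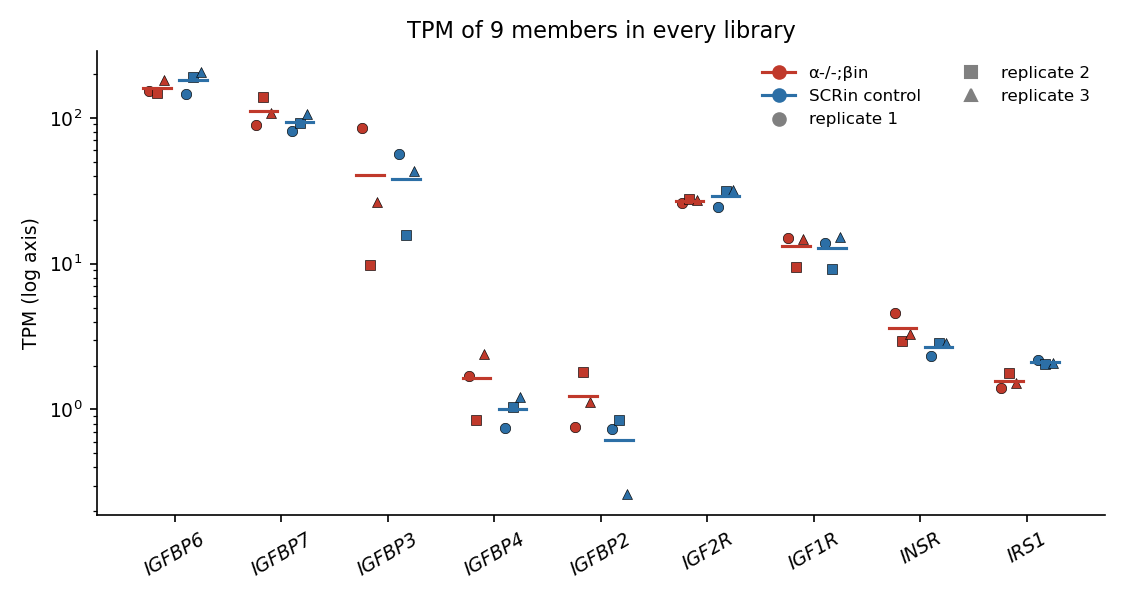
TPM on a log axis of 9 of the 10 genes in each library, with α-/-;βin libraries (red) left of SCRin control libraries (blue). Symbols give the replicate number and short lines the group means (n = 3). IGFBP5, at 0.0238 TPM or less, is not drawn. IGFBP3 has a wide spread within each group, from 9.73 to 85.1 TPM in α-/-;βin libraries, and the INSR and IRS1 groups do not overlap.

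Messenger RNA for IGF-binding proteins came almost wholly from IGFBP6, IGFBP7 and IGFBP3. These 3 made up 98.9% to 99.3% of the summed TPM of the 6 genes in α-/-;βin libraries and 99.4% to 99.6% in controls. The sum itself was 328, 298 and 320 TPM in α-/-;βin libraries and 284, 302 and 357 TPM in controls. The means were 315 ± 15.2 TPM in α-/-;βin cells and 314 ± 37.8 TPM in controls (SD, n = 3 each), and all 3 α-/-;βin sums lay inside the control range.

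**Figure D2:**
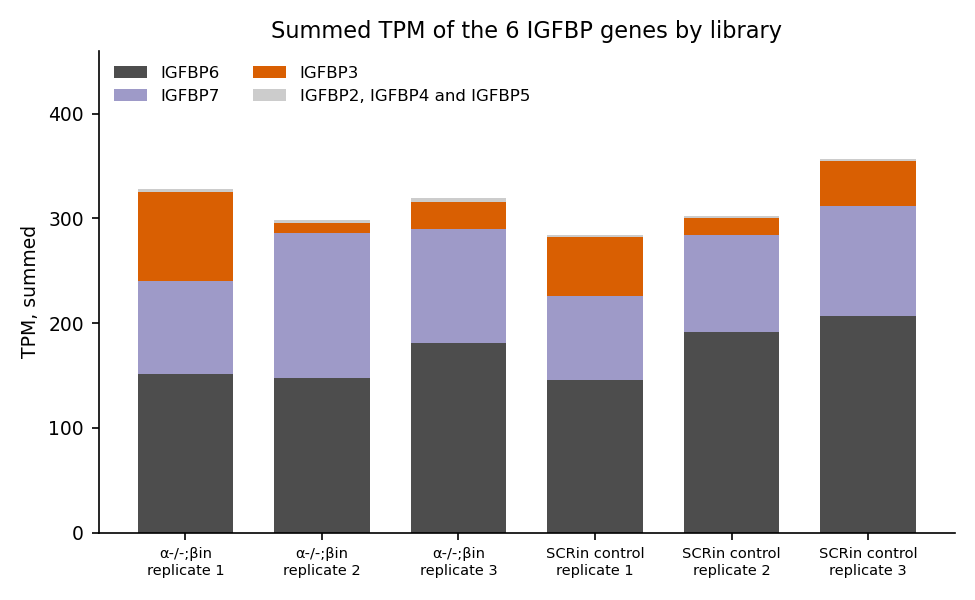
Summed TPM of the 6 IGF-binding protein genes in each library, α-/-;βin libraries left of SCRin control libraries, stacked by gene from an axis starting at 0. Totals lie between 284 and 357 TPM, and the IGFBP3 layer runs from 3.26% to 25.9% of the total.

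IGFBP6, a binding protein with a preference for IGF2, was the most abundant of the 10 genes. It measured 152, 148 and 181 TPM in α-/-;βin libraries and 146, 192 and 207 TPM in controls. The α-/-;βin values all lay between the lowest and the highest control. The log2 difference was -0.17 (95% interval -0.53 to 0.19, limma adjusted p = 0.756).

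IGFBP7, also called IGFBP-rP1, is a related secreted protein with low affinity for IGFs. It measured 88.7, 138 and 108 TPM in α-/-;βin libraries and 80.6, 92.5 and 106 TPM in controls. Replicate 2 of the α-/-;βin cells stood above the rest, and the groups overlapped. The log2 difference was 0.25 (95% interval -0.17 to 0.67, limma adjusted p = 0.683).

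IGFBP3, the main carrier of IGFs in blood and a gene induced by p53 and by TGF-β in epithelial cells, varied most. It measured 85.1, 9.73 and 26.4 TPM in α-/-;βin replicates 1 to 3. In control replicates 1 to 3 it measured 56.2, 15.8 and 42.9 TPM. Replicate 1 was the highest and replicate 2 the lowest in both groups, and all 3 control values lay within the range of the α-/-;βin libraries. The highest value was 8.74 times the lowest in α-/-;βin cells and 3.55 times in controls, while for IGFBP6 these ratios were 1.23 in α-/-;βin cells and 1.42 in controls. The SD within groups on the log2(TPM + 1) scale was 1.25, at percentile 98.4 of all genes tested. IGFBP3 made up 25.9%, 3.26% and 8.25% of the summed IGFBP TPM in α-/-;βin replicates 1 to 3, against 19.8%, 5.24% and 12.04% in control replicates 1 to 3.

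Between the groups, the log2 difference of IGFBP3 was -0.25 (SE 0.78, 95% interval -2.08 to 1.59, limma adjusted p = 0.954), an interval that holds large changes in both directions. The mean TPM was 40.4 ± 39.6 in α-/-;βin cells and 38.3 ± 20.6 in controls (SD, n = 3 each), so the mean TPM and the mean of the log2 values differed in sign. The sign also depended on single libraries: without α-/-;βin replicate 1 the log2 difference was -1.02, without replicate 2 of the same cells it was 0.48, and without control replicate 1 it was 0.11. Without replicate 2 of both groups, an alternative chosen after the data were seen, it was -0.05. Of the 8 tested genes, IGFBP3 was the 1 with the same highest and the same lowest replicate number in both groups, an arrangement found in 39.6% of all genes tested. Over all these genes, deviations from the group means correlated by 0.25 between the libraries numbered 1. The value was 0.27 for those numbered 2 and -0.02 for those numbered 3. What the libraries of 1 number had in common was not tested.

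The other binding proteins were near or below 1 TPM. IGFBP4, which inhibits IGF action until it is cleaved, measured 1.69, 0.843 and 2.41 TPM in α-/-;βin libraries and 0.745, 1.05 and 1.23 TPM in controls. The groups overlapped (log2 difference 0.36, 95% interval -0.33 to 1.05, limma adjusted p = 0.716). IGFBP2 and IGFBP5 are neighbours on chromosome 2. IGFBP2, a binding protein raised in several tumour types, measured 0.755, 1.81 and 1.12 TPM in α-/-;βin libraries and 0.733, 0.841 and 0.265 TPM in controls, with overlapping groups (exact two-sided permutation p = 0.2, where 3 against 3 allow no p below 0.1). IGFBP5, which is known in the mouse for high expression in the involuting mammary gland, was listed at 0 in all α-/-;βin libraries. In control replicates 1 to 3 it was listed at 0.00518, 0.0238 and 0 TPM.

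The receptors showed no difference that passed the test. IGF1R, the signalling receptor for IGF1 and IGF2, measured 15.1, 9.54 and 14.7 TPM in α-/-;βin replicates 1 to 3 and 13.9, 9.25 and 15.2 TPM in control replicates 1 to 3. Replicate 2 was the lowest in both groups, as for IGFBP3, while the highest library differed. That replicate was the lowest in both groups for 16.4% of all genes tested. The group means were 13.1 ± 3.11 TPM in α-/-;βin cells and 12.8 ± 3.15 TPM in controls (log2 difference 0.03, 95% interval -0.52 to 0.59, limma adjusted p = 0.982).

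INSR, the insulin receptor, was lower than IGF1R in each library. It measured 4.602, 2.93 and 3.32 TPM in α-/-;βin libraries and 2.34, 2.85 and 2.87 TPM in controls. All 3 α-/-;βin values lay above all 3 controls, by 0.0624 TPM at the nearest, and replicate 1 of the α-/-;βin cells stood above the other two. The difference did not pass (log2 difference 0.31, SE 0.19, 95% interval -0.15 to 0.77, limma adjusted p = 0.627, exact permutation p = 0.1, the smallest possible). IGF1R and INSR proteins also form hybrid receptors, so their balance is given. INSR made up 23.4%, 23.5% and 18.4% of the summed TPM of both in α-/-;βin libraries, against 14.4%, 23.6% and 15.8% in controls. These shares overlapped. The INSR splice forms, which differ in their affinity for IGF2, are not separated in a table of genes.

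IGF2R was the most abundant receptor in each library. It measured 26.0, 28.0 and 27.1 TPM in α-/-;βin libraries and 24.4, 31.4 and 31.8 TPM in controls, and the groups overlapped. The log2 difference was -0.10 (95% interval -0.39 to 0.19, limma adjusted p = 0.843). Its level was 1.72, 2.93 and 1.84 times that of IGF1R in α-/-;βin libraries, against 1.75, 3.39 and 2.09 times in controls. The highest ratio in each group was that of the library with the lowest IGF1R.

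IRS1, the adaptor that couples both signalling receptors to PI3K, was low in all libraries. It measured 1.40, 1.77 and 1.53 TPM in α-/-;βin libraries and 2.18, 2.05 and 2.09 TPM in controls. The groups did not overlap, and the mean TPM in α-/-;βin cells was 74.3% of control. The difference did not pass (log2 difference -0.28, SE 0.19, 95% interval -0.72 to 0.16, limma adjusted p = 0.659, exact permutation p = 0.1). Its relative IRS2, chosen after its values were seen, was the more abundant adaptor. IRS2 measured 14.2, 21.0 and 15.0 TPM in α-/-;βin libraries and 16.99, 21.4 and 20.5 TPM in controls. These groups overlapped (log2 difference -0.23, limma adjusted p = 0.689). The ratio of IRS2 to IRS1 was 10.1, 11.9 and 9.82 in α-/-;βin libraries and 7.80, 10.4 and 9.80 in controls.

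Ordered by mean TPM over all 6 libraries, the genes ran IGFBP6 (171), IGFBP7 (102), IGFBP3 (39.4), IGF2R (28.1), IGF1R (12.96), INSR (3.15), IRS1 (1.84), IGFBP4 (1.33), IGFBP2 (0.921) and IGFBP5 (0.00482). Each was above the next in all 6 libraries except at 3 places. IGFBP3 was above IGF2R in 3 of 6 libraries, IRS1 above IGFBP4 in 4 of 6 and IGFBP4 above IGFBP2 in 5 of 6, so these neighbours in the order are not separated beyond their spread.

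**Figure D3:**
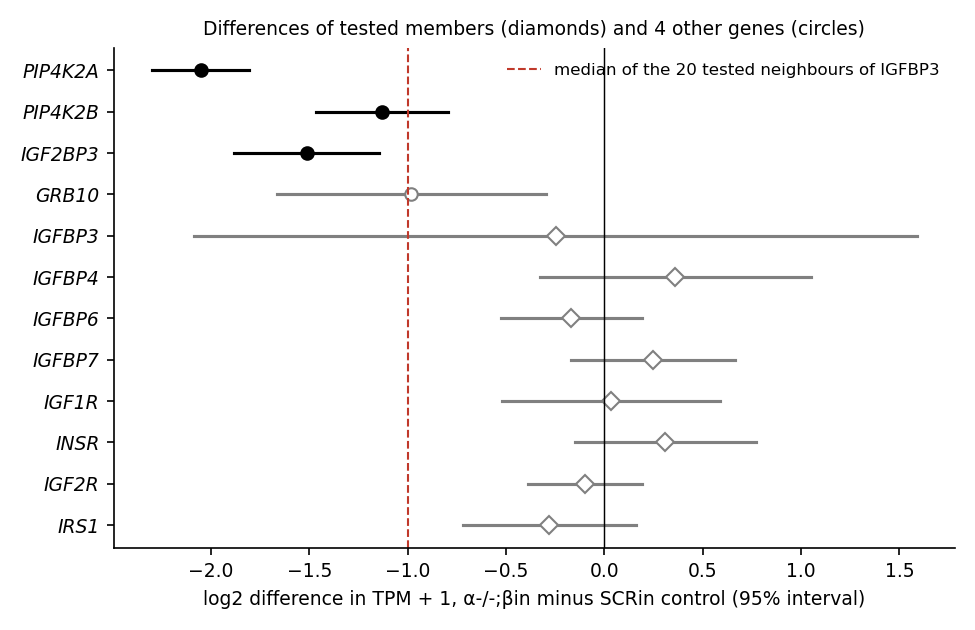
Log2 difference of TPM + 1, α-/-;βin minus SCRin control, with its 95% interval from limma, for the 8 tested IGF genes (diamonds) and for PIP4K2A, PIP4K2B, IGF2BP3 and GRB10 (circles). Filled symbols were called. The interval of IGFBP3 runs from -2.08 to 1.59 and holds both 0 and the dashed line, the median of its 20 tested neighbours at -0.999.

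IGFBP3 lies in a stretch of chromosome 7 where most genes were lower in α-/-;βin cells. From FAM20C through CHCHD2, a stretch chosen from earlier results of these data, 193 of 196 tested genes had a log2 difference below 0 and the median was -0.91. In that stretch 128 genes, or 65.3%, were called lower, against 1.83% of all genes tested. The 10 tested genes on either side of IGFBP3 in the RefSeq gene order had a median log2 difference of -0.999, with 18 of 20 below 0 and 12 called lower. Among the 3 nearest on either side, TNS3, a focal adhesion protein, measured 13.1, 11.4 and 10.96 TPM in α-/-;βin libraries and 29.1, 24.3 and 27.4 TPM in controls. HUS1, a subunit of a DNA damage checkpoint clamp, and UPP1, a uridine phosphorylase, stood at 51.0% and 43.0% of control. All 3 were called lower, with limma adjusted p of 0.00577 for TNS3, 0.00638 for HUS1 and 0.00489 for UPP1. SEPT7P2, a septin pseudogene that may share reads with SEPT7, stood at 47.1% of control (adjusted p = 0.0613). The small nucleolar RNAs SNORA5B and SNORA5C were listed at 0 in some libraries of both groups and are not resolved. With small nucleolar and other short RNA genes left out, a step added after the data were seen, the 20 nearest tested genes had a median of -0.97, with 19 of 20 below 0 and 16 called lower. COBL, an actin nucleator, stood at 101% of control. EGFR, the epidermal growth factor receptor, is another of the 20 neighbours and was chosen with its values in view. It stood at 46.5% of control.

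Set against these neighbours, IGFBP3 again varied between replicates. The mean log2(TPM + 1) of the 20 neighbours was 4.31, 4.78 and 4.54 in α-/-;βin replicates 1 to 3 and 5.42, 5.40 and 5.60 in control replicates 1 to 3, so the neighbours' groups did not overlap. IGFBP3 minus this mean was 2.12, -1.35 and 0.23 in α-/-;βin libraries, against 0.42, -1.33 and -0.14 in controls. The groups overlapped, and the difference of 0.68 did not pass (exact two-sided permutation p = 0.7). Without α-/-;βin replicate 1 the sign turned, with a difference of -0.21. With short RNA genes left out, a step added after the data were seen, the mean was taken over the 20 nearest other tested genes. IGFBP3 minus that mean was 1.20, -1.87 and -0.49 in α-/-;βin libraries, against -0.31, -2.16 and -0.77 in controls. The groups again overlapped, with a difference of 0.70 (exact two-sided permutation p = 0.5). Of the 196 tested genes of the stretch, 6, IGFBP3 among them, had a within-group SD of at least 1.25. The small nucleolar RNAs SNORA9, SNORA5A, SNORA5B and SNORA5C, each listed at 0 in some libraries, were also among these 6. The 95% interval of IGFBP3 held both 0 and the neighbours' median.

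**Figure D4:**
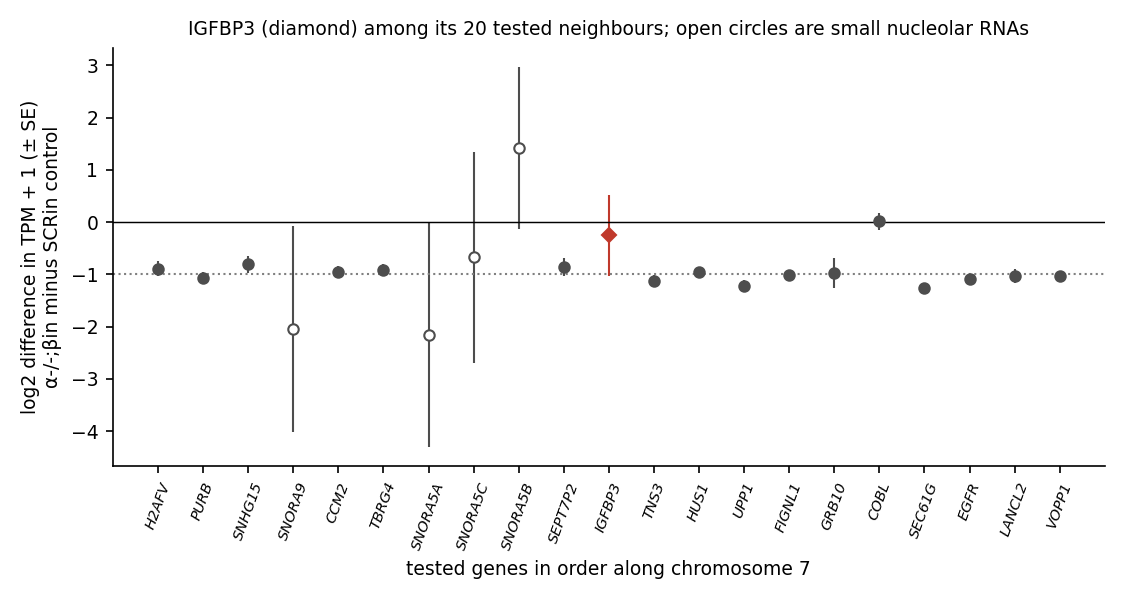
Log2 difference of TPM + 1, α-/-;βin minus SCRin control, with its SE, for IGFBP3 (red diamond) and the 10 tested genes on either side along chromosome 7. Open circles are small nucleolar RNAs and the dotted line marks -1. Most filled circles sit near -1 with short bars, COBL sits at 0.01, and IGFBP3 at -0.25 has a long bar.

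The other 9 genes lay outside that stretch, and the genes around them were level in the median. The median log2 difference of the 20 tested neighbours lay between -0.05 and 0.04 for these 9, with 0 neighbours called lower around any of them. Single neighbours ran from -2.11, around IGF2R, to 2.20, around IGF1R. IGFBP7 and IGF1R each had 1 neighbour called higher. IGFBP2 and IGFBP5 shared the same neighbours.

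In the wider pathway, 11 lists with 130 genes gave 102 tested genes, of which 1 was called lower and 0 higher by limma, against 2.19% called among all genes. An unadjusted p below 0.05 was reached by 19, or 18.6%, against 11.9% of all genes tested. The lists were drawn up with earlier results of these data known. The call was IGF2BP3, which binds IGF2 messenger RNA and is no IGF-binding protein in spite of its name. IGF2BP3 measured 27.7, 20.4 and 25.5 TPM in α-/-;βin libraries and 84.3, 62.2 and 69.3 TPM in controls. The groups were far apart (log2 difference -1.51, SE 0.16, limma adjusted p = 0.00575). IGF2BP3 lies in the chromosome 7 stretch, where its 20 tested neighbours had a median of -0.85. Relative to the mean of these neighbours its log2 level was -0.01, -0.50 and -0.17 in α-/-;βin libraries and 0.74, 0.29 and 0.37 in controls, with no overlap (difference -0.69, exact permutation p = 0.1, the smallest possible). This second comparison, like IGF2BP2, was chosen with the values in view. IGF2BP2, its relative on chromosome 3, measured 41.4, 56.0 and 52.5 TPM in α-/-;βin libraries and 31.5, 41.3 and 39.0 TPM in controls and did not pass (log2 difference 0.41, adjusted p = 0.349).

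GRB10, an adaptor that binds IGF1R and INSR and restrains their signalling, lies in the same stretch and was chosen after its values were seen. It measured 46.6, 22.4 and 35.2 TPM in α-/-;βin replicates 1 to 3 and 85.9, 50.5 and 68.1 TPM in control replicates 1 to 3. Replicate 1 was the highest and replicate 2 the lowest in both groups, as for IGFBP3, yet the groups did not overlap. The mean was 50.9% of control, and the difference did not pass over all genes (log2 difference -0.98, SE 0.29, limma adjusted p = 0.221). Relative to its own 20 neighbours GRB10 differed by -0.14 (exact permutation p = 0.8). These neighbours include IGFBP3 and the small nucleolar RNAs SNORA5A, SNORA5B and SNORA5C, each of these RNAs listed at 0 in some libraries. For GRB10 the comparison was not repeated without short RNA genes. Of the 17 genes listed as negative regulators of the receptors and adaptors, 0 were called. How each listed gene acts on the receptors in these cells was not tested. The most abundant, CAV1, a caveolar coat protein encoded on chromosome 7 outside the stretch, measured 728, 990 and 771 TPM in α-/-;βin libraries and 588, 707 and 491 TPM in controls (log2 difference 0.48, adjusted p = 0.319).

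Ligand transcripts were scarce. INS was listed at 0 in all libraries, IGF1 reached at most 0.0553 TPM in α-/-;βin libraries and 0.642 TPM in controls, and IGF2 at most 0.0513 TPM in α-/-;βin libraries and 0.0949 TPM in controls. These 3 genes were chosen with their values in view. Of the 5 ligand genes 1 was tested, RLN2, a relaxin of the insulin superfamily that acts on another kind of receptor and can share reads with RLN1. RLN2 measured 2.23, 0.293 and 1.65 TPM in α-/-;βin libraries and 6.80, 3.87 and 4.22 TPM in controls, with no overlap, and did not pass (log2 difference -1.39, limma adjusted p = 0.178). IGFBP1, next to IGFBP3 on chromosome 7 and chosen afterwards, was listed at 0 in all but 1 control, where it had 0.0793 TPM.

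The remaining lists held 0 calls each. Of 10 tested IGFBP proteases and inhibitors the most abundant was ADAM9, a membrane metalloprotease, with 161, 184 and 178 TPM in α-/-;βin libraries and 151, 172 and 162 TPM in controls (log2 difference 0.11, limma adjusted p = 0.734). The groups did not overlap for 4 of these 10, HTRA1, PRSS23, MMP2 and CTSD, against 17.1% of all genes tested. MMP2, a gelatinase, and CTSD, the lysosomal aspartyl protease cathepsin D, are given in full and were picked with their values in view. MMP2 measured 1.44, 0.443 and 1.07 TPM in α-/-;βin libraries and 7.14, 2.79 and 6.72 TPM in controls (log2 difference -1.68, adjusted p = 0.0764). CTSD, a cargo of the mannose 6-phosphate route, measured 99.1, 116 and 84.3 TPM in α-/-;βin libraries and 61.0, 67.9 and 54.1 TPM in controls (log2 difference 0.70, adjusted p = 0.0664). Neither passed.

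Of 13 tested genes for mannose 6-phosphate tagging and sorting, the route that IGF2R serves, log2 differences ran from -0.27 to 0.24. VPS29, a retromer subunit, led this list with 205, 186 and 204 TPM in α-/-;βin libraries and 192, 187 and 208 TPM in controls. Of 9 tested receptor adaptors the most abundant was SHC1, which links receptors to RAS, with 353, 436 and 387 TPM in α-/-;βin libraries and 280, 352 and 346 TPM in controls. The SHC1 groups were separated by a narrow margin, and the gene did not pass (log2 difference 0.27, limma adjusted p = 0.484). In the PI3K and AKT list, 14 genes had a median of -0.00, and AKT1 measured 93.9, 107 and 110 TPM in α-/-;βin libraries and 89.5, 103 and 105 TPM in controls.

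Of 11 tested FOXO factors and FOXO-induced genes, the most abundant was KLF6, a zinc finger factor, with 147, 64.9 and 104 TPM in α-/-;βin replicates 1 to 3 and 131, 80.7 and 117 TPM in control replicates 1 to 3. KLF6 thus had the replicate order of IGFBP3. TFRC, the transferrin receptor, led the 8 tested genes of processing and traffic, with 120, 153 and 77.2 TPM in α-/-;βin libraries and 98.0, 139 and 83.0 TPM in controls. CYR61, a matricellular protein with an IGFBP-like domain, led 6 tested IGFBP-related genes, with 173, 159 and 249 TPM in α-/-;βin libraries and 114, 152 and 237 TPM in controls. Among 11 tested surface and matrix partners, ITGB1, the β1 integrin, measured 1205, 1102 and 1255 TPM in α-/-;βin libraries and 999.7, 900.5 and 1036 TPM in controls. These ITGB1 groups did not overlap and the gene did not pass (log2 difference 0.28, limma adjusted p = 0.292). Over all 102 pathway genes 23.5% had groups that did not overlap, against 17.1% of all genes tested, and the median log2 difference was 0.02.

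**Figure D5:**
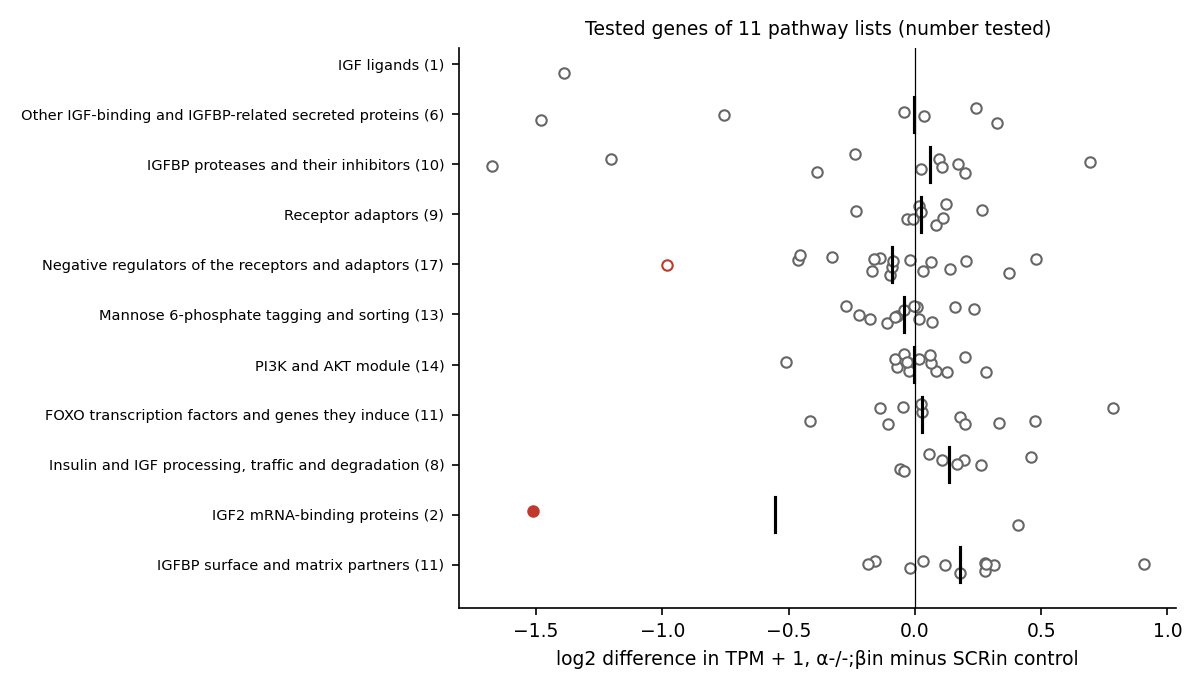
Log2 difference of TPM + 1, α-/-;βin minus SCRin control, for the tested genes of 11 pathway lists, 1 symbol per gene, with the median of each list as a black bar where it has more than 1 gene. Red marks genes of the chromosome 7 stretch and a filled symbol the called gene. IGF2BP3 at -1.51 is the filled symbol and GRB10 at -0.98 the open red one. The medians of the 9 lists with more than 2 tested genes lie between -0.09 and 0.18.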

How the data were processed

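The authors deposited TPM values, 1 column per library, for 27914 genes named by symbol, and each column summed to 1000000. Per the submitters' processing notes the reads were placed on hg19. Aligner, counting program, strand setting and filters are not stated. Control columns were matched by name and number, and the columns headed as the experiment were taken as the remaining group, by number. Depth per library is unknown. An exact 0 can be a failed estimate.

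Values were tested as log2(TPM + 1) for the 12096 genes (43.3%) whose mean reached 1 TPM, by limma 3.58.1 in R 4.3.3 with a mean-variance trend, two-sided, with Benjamini-Hochberg adjustment over all of them and a threshold of 0.05. The fit was tested on simulated data with the gene means and within-group SDs of these libraries, in which 200 genes were changed. Of genes changed by 1 on the log2 scale 62% were called, and of genes changed by 2, 83%. Of the calls, 3.97% were false. The changed genes were drawn at random and the simulated noise was independent between libraries. These shares are thus averages and need not hold for a single gene. Within-group SDs of the 8 tested IGF genes ran from percentile 8.07 (IRS1) to 98.4 (IGFBP3) of all genes tested. An exact permutation test, two-sided, served for single values. Gene order came from RefSeq GRCh38.p14, which is not the authors' build, and 26980 symbols were placed. Named genes were all 10 members, the PIP4K2 genes, called and most abundant list members, and the 3 nearest neighbours of IGFBP3 on either side. The members and lists were chosen with earlier results of these data known. The labels do not say whether replicate numbers pair the libraries, and this was not tested. Deviations from the group means correlated by 0.25, 0.27 and -0.02 for numbers 1 to 3. For α-/-;βin replicate 1 with control replicate 2 the value was -0.29, and for α-/-;βin replicate 2 with control replicate 1 it was -0.24. Other unlike numbers gave -0.04 to 0.05.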

Additional observations from a re-analysis of the deposited data

How the results depend on the processing

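No IGF-binding protein, receptor or adaptor gene was called under any of the 17 alternatives (0 of those tested each time), with the replicate block or without replicate 2 in both groups included. The count over all genes was 265. It was 881 with the replicate block and 52 without replicate 2 in both groups, and leaving out 1 library gave 106 (without control replicate 3) to 219, with 119 without α-/-;βin replicate 3 and 163 without α-/-;βin replicate 1. The labels only number the replicates, so whether the block pairs libraries that belong together is unknown. Calls among the pathway genes, 1 as reported, were 2 with median-of-ratios scaling, 3 without short RNA genes, 16 with the replicate block and 1 to 3 (3 without control replicate 2) with 1 library left out. With the block these included GRB10 (limma adjusted p = 0.00262), ITGB1 (0.0145), CAV1 (0.0199), RLN2 (0.0281) and SHC1 (0.0422), none of which passed without it. IGF2BP3 was called under each alternative (limma adjusted p 0.000993 to 0.0412). The sign of some uncalled differences turned when 1 library was left out, and the cause was not tested: IGFBP3 ran from -1.02 to 0.48, IGF1R from -0.17 to 0.23 and IGFBP3 relative to its neighbours from -0.21 to 1.53, which was 0.68 with the replicate block (paired sign-flip permutation p = 0.5, with 0.25 the smallest possible). Other uncalled differences kept their sign but moved by over 1.5 times. IGFBP7 was 0.085 without α-/-;βin replicate 2 and 0.40 without α-/-;βin replicate 1, INSR was 0.16 without α-/-;βin replicate 1, and IGFBP4 was 0.16 without α-/-;βin replicate 3 and 0.60 without α-/-;βin replicate 2. IGFBP6 was -0.067 and IGF2R -0.034 without control replicate 3, and IGFBP6 was -0.32 and IGF2R -0.22 without control replicate 1. The sign also turned for AKT1 (-0.0066 to 0.13), CYR61 (-0.0020 to 0.52), KLF6 (-0.38 to 0.20), TFRC (-0.12 to 0.37) and VPS29 (-0.014 to 0.064), and IGFBP4, INSR and IRS1 gave no value at a minimum mean of 5 TPM. TPM without counts limits what can be said of IGFBP2, IGFBP4, IGFBP5 and IRS1, which were low in all libraries.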
